A study of Homo sapiens with 4 samples.

Results

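Transcripts of 9 genes of MHC class I antigen presentation were followed across 4 conditions of a pancreatic ductal adenocarcinoma (PDAC) experiment. The genes were listed by symbol, with earlier results of these data known, and they are 9 of the 16834 genes in the deposited table. They are the heavy chains HLA-B, HLA-C and HLA-E, the light chain B2M, the peptide transporter subunits TAP1 and TAP2, the loading factor TAPBP, the trimming peptidase ERAP1 and the transactivator NLRC5. The cells, wild type and labelled MIA PaCa-2, an established human PDAC line, were compared after 12 h in 4 states. These were control cells, cells given 1 µM neobractatin (NBT, from the plant Garcinia bracteata), cells given 5 µM trametinib (which blocks MEK) and cells given the combination. No vehicle is named in the labels. Each condition was sequenced as 1 library, so there is no replicate check, the variation between cultures was not measured, and no p-value is given.

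Nearly every nucleated cell displays peptides from its own proteins on MHC class I. The proteasome cuts the proteins, the TAP1 and TAP2 pump carries the peptides into the endoplasmic reticulum, ERAP1 trims them, and tapasin, the product of TAPBP, helps a heavy chain paired with B2M to take up a fitting peptide before the complex travels to the surface. Cytotoxic T cells read these complexes, NK cells read HLA-E, and tumours with little class I can escape T cells. Transcription of most of these genes responds to interferon and to NLRC5, which binds class I promoters through other factors.

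The authors' estimated read counts summed to between 18776212 and 19614763 per library, and 3 reads in a library, the limit that a count of 0 allows, were 0.153 to 0.160 CPM (counts scaled to the library's sum). All 9 genes were among the 12905 genes with a mean of at least 10 counts over the libraries. The trametinib labels were checked on 8 listed transcriptional outputs of MEK and ERK signalling, and all 8 were lower by more than a fold of 2 with trametinib (median log2 ratio -3.27) and with the combination (-3.06). The identity markers went against the cell line label. MIA PaCa-2 is known as a line poor in E-cadherin, rich in vimentin and lacking CDKN2A and MTAP through a deletion. Here CDH1, which encodes E-cadherin, had 2539 to 4086 reads (51.2 to 86.9 TPM), VIM, which encodes vimentin, had 202 to 500 reads (11.5 to 26.4 TPM), CDKN2A had 2643 to 3524 reads and MTAP had 815 to 1151 reads. CDKN2A and MTAP were looked at after the other markers had been seen. Which line was sequenced was not tested, and the cells are therefore called cells labelled MIA PaCa-2. Of the 5 leukocyte markers in the table, CD14 had 2 to 3 reads, PTPRC 8 to 17 and LYZ 30 to 36, and CD68, a lysosomal protein best known from macrophages, had 2054 reads in control, 2400 with NBT, 1503 with trametinib and 1695 in the combination library. CD3E was at 0 in the control and NBT libraries and had 55 reads with trametinib and 29 in the combination library. The fibroblast marker COL1A1 had 45, 27, 98 and 53 reads in the control, NBT, trametinib and combination libraries, and COL1A2 had 0 to 2. The 5 leukocyte markers summed to 2100, 2446, 1613 and 1774 reads, and the 4 fibroblast markers in the table to 45, 29, 104 and 57. CD3E and COL1A1 were thus highest with trametinib, as were 6 of the 9 class I genes, while CD68 was lowest there. The share of all genes highest with trametinib is not given here, and the part of these markers in the results was not tested. In bulk RNA, fewer cells of a type and less RNA per cell cannot be told apart.

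Most class I transcripts were higher with trametinib, and with NBT alone most lay near the control level. With trametinib, 8 of the 9 genes lay above the control library, as did 58.0% of all genes tested, by log2 ratios of 0.17 to 1.07, and TAP2 lay below it at -0.44. With NBT alone the median log2 ratio was -0.04 and the ratio farthest from 0 was that of TAPBP, at -0.69. With the combination 7 of the 9 lay above control, as did 52.8% of all genes, with a median of 0.28, and TAPBP and TAP2 lay below it. The 9 genes took 0.0703% of all counts in the control library, 0.0674% with NBT, 0.0948% with trametinib and 0.0861% in the combination library. The ratios are log2 ratios of counts scaled to each library's sum, and the bracketed ranges are exact 95% intervals that cover counting error only.

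**Figure D1:**
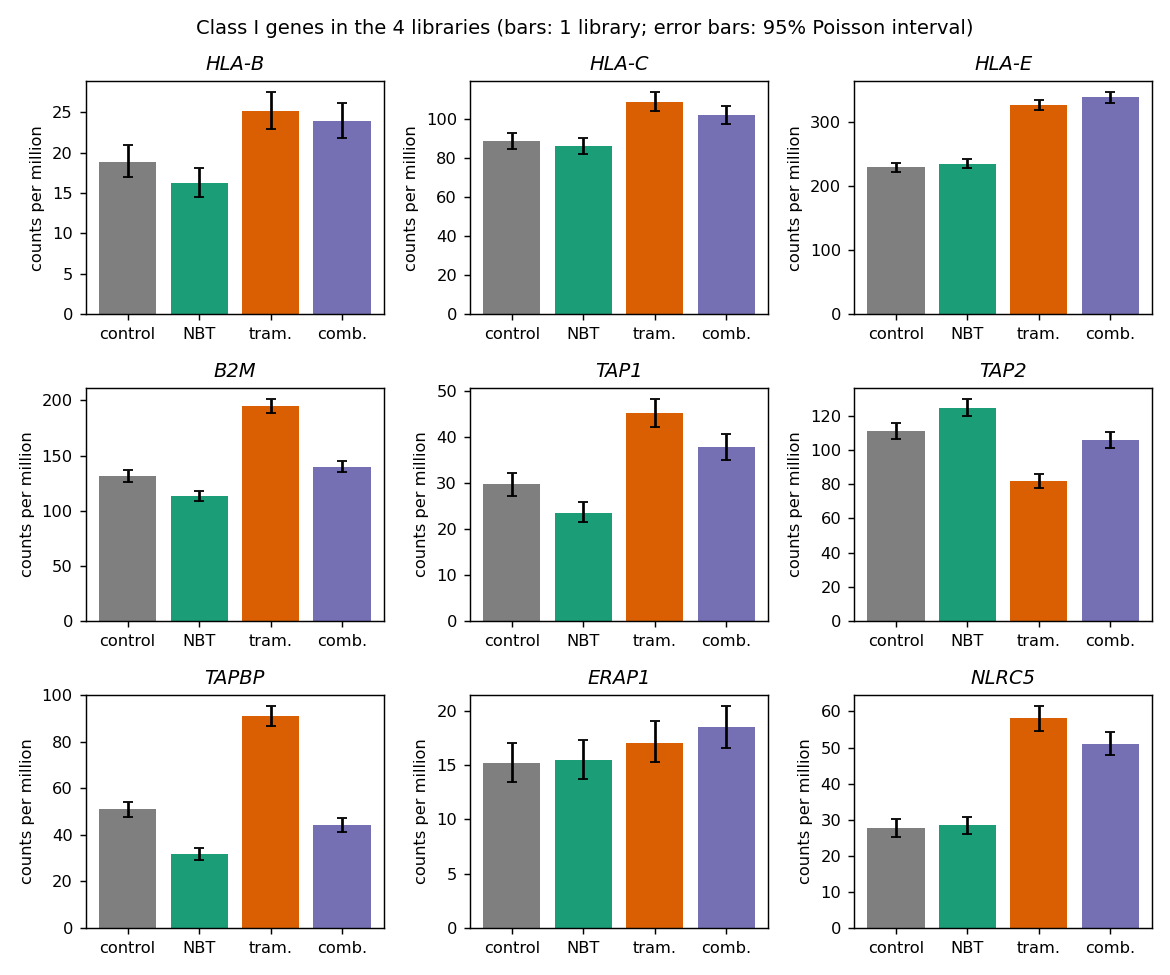
CPM (vertical axes) of the 9 class I genes in the control, NBT, trametinib and combination (comb.) libraries. Each bar is 1 library, and error bars are 95% Poisson intervals of the count. The trametinib bar is the highest for HLA-B, HLA-C, B2M, TAP1, TAPBP and NLRC5, the combination bar is the highest for HLA-E and ERAP1, and TAP2 is lowest with trametinib.

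Levels between genes were compared in TPM, which is scaled to length. In the control library HLA-E was the most abundant of the 9 at 178 TPM, followed by B2M at 156 and HLA-C at 115. TAP2 stood at 51.0 TPM, TAPBP at 29.8, HLA-B at 24.7 and TAP1 at 22.4, and the counting intervals of HLA-B and TAP1 overlapped. NLRC5 and ERAP1 were the least abundant, at 9.98 and 6.12 TPM. The order of HLA-E, B2M and HLA-C at the top and of NLRC5 and ERAP1 at the bottom was the same in all 4 libraries. The middle of the order changed. TAPBP passed TAP2 with trametinib, at 52.9 against 35.9 TPM, and with NBT it stood level with HLA-B and TAP1, with overlapping neighbouring intervals. With the combination it overlapped with TAP1, at 25.5 against 27.6 TPM, and lay below HLA-B, at 30.5 TPM.

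Of the heavy chains, HLA-E, which presents leader peptides of other class I chains to NK cells, had 4303 reads in the control library, 4561 with NBT, 6179 with trametinib and 6625 in the combination library. Both libraries with trametinib were above both without it. The log2 ratio against control was 0.51 [0.45, 0.57] with trametinib, a fold of 1.42, and 0.56 [0.50, 0.62] with the combination. With NBT alone it was 0.03 [-0.03, 0.09].

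HLA-B, a classical chain that presents peptides to cytotoxic T cells, had 354 reads in control, 316 with NBT, 476 with trametinib and 469 in the combination library. The same separation by trametinib was seen, with log2 ratios of 0.41 [0.21, 0.62] for trametinib and 0.34 [0.14, 0.55] for the combination. HLA-C, which also serves as a ligand for killer-cell receptors, had 1666, 1676, 2067 and 2004 reads in the same order. Its ratios were smaller, at 0.30 [0.20, 0.39] with trametinib and 0.20 [0.11, 0.30] with the combination, and its NBT ratio of -0.04 [-0.14, 0.06] included 0. Reads of HLA genes can match several of these polymorphic genes, and the counts of 8 of the 9 members, all except NLRC5, were not whole numbers to within 0.005, a property shared by 53.9% of all genes, so the split between HLA genes is an estimate.

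B2M, the light chain shared by all class I molecules, had 2469 reads in control, 2201 with NBT, 3694 with trametinib and 2748 in the combination library. The trametinib library stood apart from the other three. The log2 ratio was 0.57 [0.49, 0.64] with trametinib, a fold of 1.48, and 0.09 [0.01, 0.17] with the combination. B2M was lower with the combination than with trametinib alone, at -0.48 [-0.55, -0.40] or a fold of 0.719, whereas HLA-E differed by 0.05 [0.00, 0.10] in the same pair.

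Among the genes of peptide loading, TAPBP varied most over the 4 libraries, with a range of 1.53 on the log2 scale against 0.28 for ERAP1, the least variable of the 9. Tapasin bridges the TAP pump and the empty heavy chain. TAPBP had 956 reads in control, 613 with NBT, 1725 with trametinib and 869 in the combination library, so the trametinib library was the highest and the NBT library the lowest. It was higher with trametinib by 0.84 [0.72, 0.95], a fold of 1.79, and lower with NBT by a log2 ratio of -0.69 [-0.84, -0.54], a fold of 0.620. With the combination it was -0.20 [-0.33, -0.07] against control and -1.04 [-1.16, -0.92] against trametinib, a fold of 0.487. Of all genes tested, 4.08% lay below TAPBP in the NBT comparison, 93.4% with trametinib against control, and 4.01% in the combination against trametinib.

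The transcript estimates of TAPBP moved unequally. The leading transcript, NM_003190.5, had 503 estimated reads in control, 236 with NBT, 859 with trametinib and 372 in the combination library. It held 52.6% of the gene's reads in the control library and 38.6% with NBT. A second transcript, NM_172209.3, had 242, 202, 417 and 199 estimated reads. The split rests on the authors' estimates per transcript, which have no error given.

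TAP1 and TAP2, which pair to form the peptide pump, lay on opposite sides of the control library with trametinib. TAP1 had 558 reads in control, 458 with NBT, 856 with trametinib and 741 in the combination library. Its log2 ratios were -0.33 [-0.52, -0.15] with NBT, 0.60 [0.45, 0.76] with trametinib, a fold of 1.52, and 0.35 [0.19, 0.51] with the combination. TAP2 had 2082, 2424, 1548 and 2074 reads. It was lowest with trametinib, at -0.44 [-0.54, -0.35] or a fold of 0.737, highest with NBT, at 0.17 [0.08, 0.25], and at -0.07 [-0.16, 0.02] with the combination. The ratio of TAP1 to TAP2 in TPM was 0.440 in control, 0.317 with NBT, 0.931 with trametinib and 0.575 in the combination library. Each of the leading transcripts of TAP2, NM_001290043.2 and NM_018833.2, was lowest with trametinib, at 1174 and 353 estimated reads against 1517 and 537 in control. TAP2 shares 2064 exonic bases, 32.3% of its exons, with the gene model AL669918.1 on the same strand, and TAP1 shares 456 with PSMB8-AS1 on the opposite strand, in the GENCODE v29 annotation. HLA-B shares 542 exonic bases with the pseudogene model AL671883.2, and ERAP1 shares 299 with CAST and 252 with AC008906.1, all on the opposite strand. How the counting treated strand is not given in the sources used here.

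ERAP1, the aminopeptidase that trims peptides to the length that fits class I, changed least. It had 285 reads in control, 300 with NBT, 323 with trametinib and 362 in the combination library. Only the combination had an interval above 0 against control, at 0.28 [0.05, 0.51], with 0.17 [-0.07, 0.40] for trametinib and 0.02 [-0.21, 0.26] for NBT.

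NLRC5 was the only one of the 9 beyond a fold of 2 against control in any condition. It had 518 reads in control, 552 with NBT, 1100 with trametinib and 1000 in the combination library, and both libraries with trametinib were far above both without. The log2 ratio was 1.07 [0.92, 1.23] with trametinib, a fold of 2.10, with 96.1% of all genes below it, and 0.89 [0.73, 1.04] with the combination. With NBT it was 0.04 [-0.13, 0.22]. In the authors' TPM values, which carry their estimate of transcript length, NLRC5 stood at 9.98, 8.92, 18.3 and 15.9, and the log2 ratio for trametinib was 0.87. The 17 transcripts of NLRC5 were not steady estimates, since 12 had at least 50 reads in 1 library and under 1 in another, so none is described singly.

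**Figure D2:**
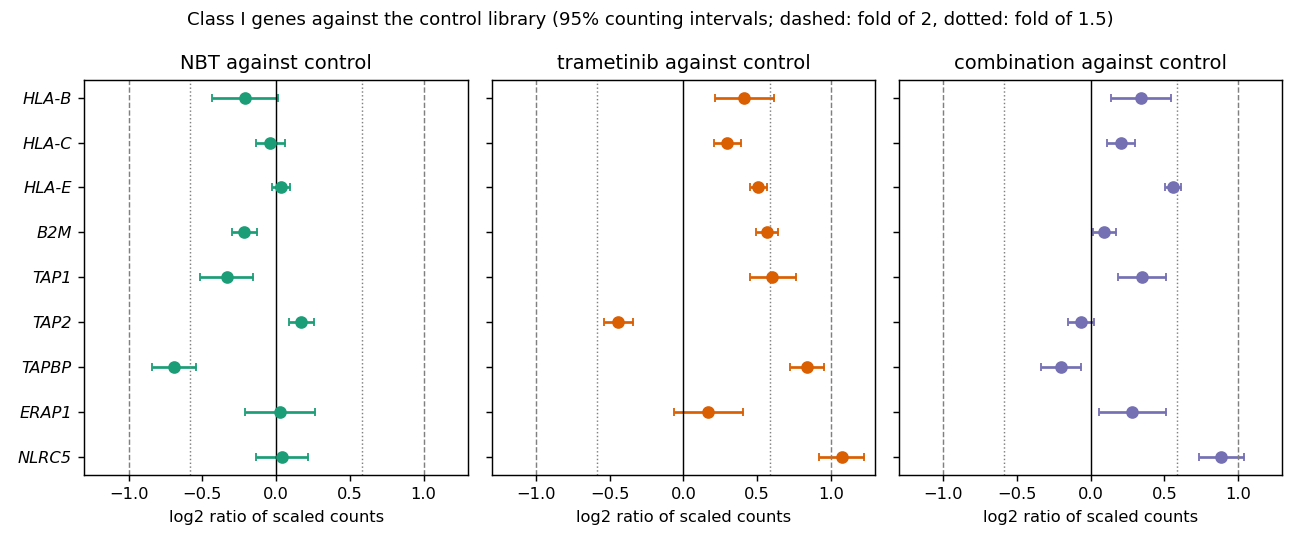
Log2 ratios of the 9 class I genes against the control library for NBT, trametinib and the combination, with exact 95% counting intervals as horizontal bars. Dashed lines mark a fold of 2 and dotted lines a fold of 1.5. Only NLRC5 with trametinib, at 1.07, is beyond the dashed lines, and TAP2 is the one gene to the left of 0 with trametinib.

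These counts were read against all 12905 genes tested. With trametinib 1 of the 9 genes was higher by a fold of 2, as were 4.54% of all genes, and 3 (NLRC5, TAPBP and TAP1) by a fold of 1.5, as were 11.4%. TAP1 lay close to that limit, and 2 genes passed it with edgeR's TMM factors, DESeq2's size factors or TPM. None of the 9 was lower by a fold of 1.5 with trametinib, a fall found for only 6.57% of all genes. Intervals lay above 0 for 7 of the 9, as for 34.1% of all genes, and below 0 for TAP2 alone, as for 23.8%. The median of the 9 was 0.51 and the median of all genes 0.07. With NBT, 0 of the 9 passed a fold of 2 in either direction, against 3.71% of all genes, and 1 (TAPBP) was lower by a fold of 1.5, as were 5.65%. Intervals in the NBT comparison lay above 0 for TAP2 alone, as for 23.7% of all genes, and below 0 for B2M, TAP1 and TAPBP, as for 26.1%. With the combination, 0 of the 9 passed a fold of 2 in either direction, against 10.2% of all genes, and NLRC5 was higher by a fold of 1.5, as were 14.4%. These 3 comparisons share the control library.

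**Figure D3:**
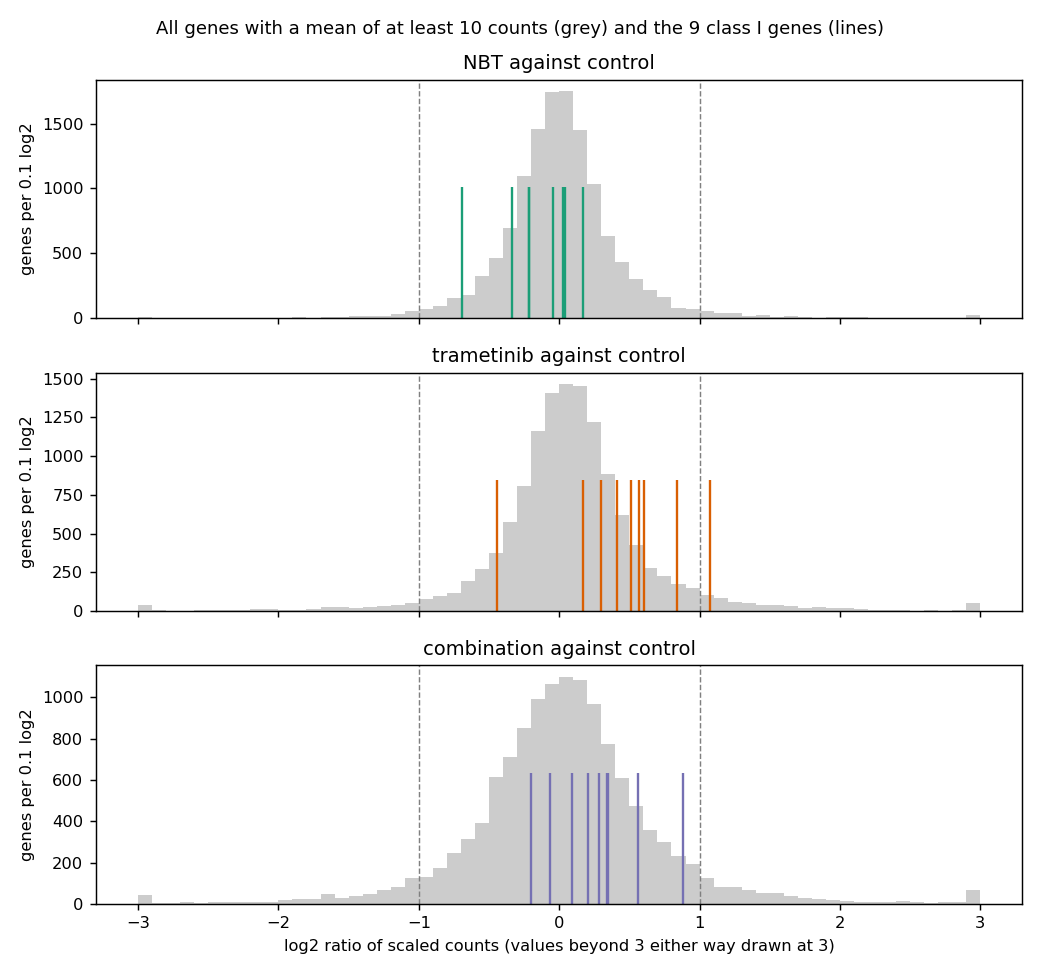
Histograms of the log2 ratios of the 12905 genes with a mean of at least 10 counts (grey, bins of 0.1) for the 3 comparisons against control, with the 9 class I genes as coloured lines of equal height. Values beyond 3 in either direction are drawn at 3. With trametinib 8 of the 9 lines lie to the right of 0, with a median of 0.51 against 0.07 for all genes, and with NBT the lines lie between -0.69 and 0.17.

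The design gives each drug in a second pair of libraries, on top of the other drug. Trametinib against control and the combination against NBT share no library. In the second pair 8 of the 9 genes were again above 0, with a median of 0.49 against 0.03 for all genes, of which 53.8% were above 0. NLRC5 was at 0.84 [0.69, 1.00] and TAP1 at 0.68 [0.51, 0.85], which are folds of 1.79 and 1.60, and these 2 were higher by a fold of 1.5, as were 8.13% of all genes. TAPBP was at 0.49 [0.34, 0.64], HLA-B at 0.56 [0.35, 0.77], HLA-E at 0.53 [0.47, 0.58] and B2M at 0.31 [0.23, 0.39]. HLA-C was at 0.24 [0.15, 0.34], ERAP1 at 0.26 [0.03, 0.48] and TAP2 at -0.24 [-0.32, -0.15]. Each of the 9 genes therefore had the same sign for trametinib with and without NBT. The share of all genes with the same sign in both pairs is not given here. Intervals on opposite sides of 0 in these pairs were found for 0 of the 9 genes and for 4.73% of all genes.

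NBT against control and the combination against trametinib also share no library. TAPBP was the lowest of the 9 in both, at -0.69 without trametinib and -1.04 with it, and was the 1 gene of the 9 lower by a fold of 2 in the second pair, as were 4.52% of all genes. B2M was at -0.22 [-0.30, -0.13] and -0.48 [-0.55, -0.40], and TAP1 at -0.33 [-0.52, -0.15] and -0.26 [-0.40, -0.11]. TAP2 was the highest of the 9 in both, at 0.17 [0.08, 0.25] and 0.37 [0.28, 0.47]. HLA-B was at -0.21 [-0.44, 0.01] and -0.07 [-0.26, 0.12], with both intervals including 0. NLRC5 was at 0.04 [-0.13, 0.22] and -0.19 [-0.31, -0.06], and HLA-E at 0.03 and 0.05. B2M, TAP1 and TAPBP were thus below 0, and TAP2 above it, for NBT whether trametinib was present or not. The share of all genes that kept their side in both NBT pairs is not given here. Intervals on opposite sides of 0 in the NBT pairs were found for 0 of the 9 genes and for 3.18% of all genes.

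**Figure D4:**
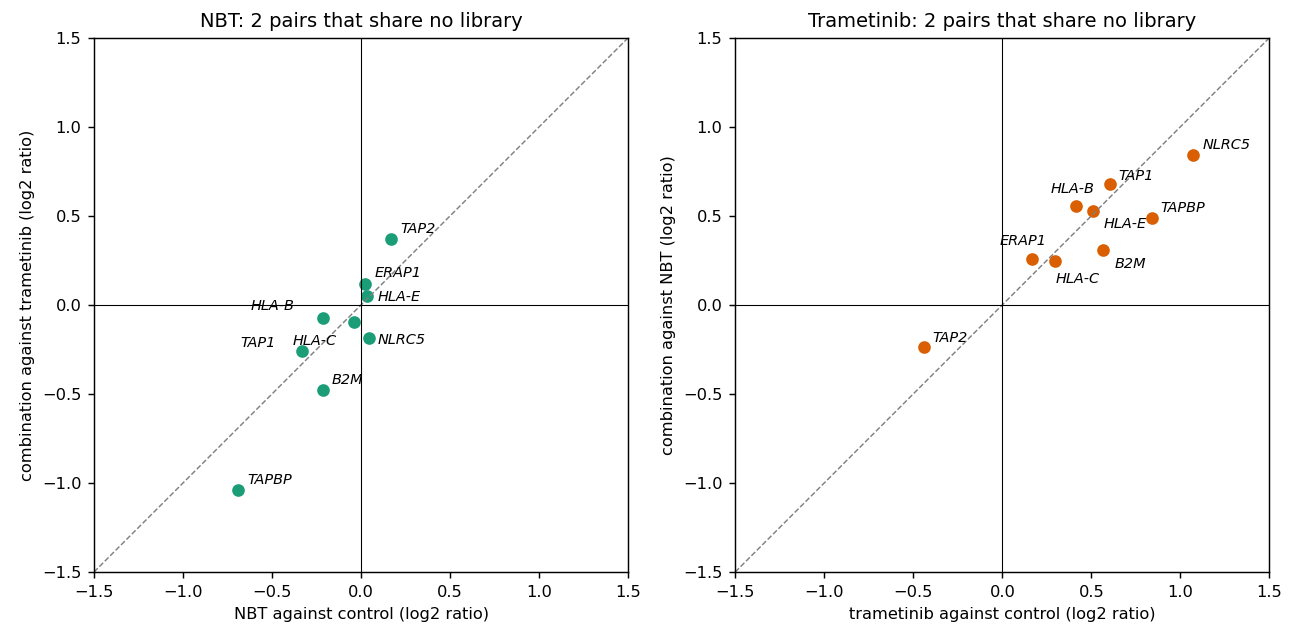
Log2 ratios of the 9 class I genes for the same drug in separate pairs of libraries, without the other drug (horizontal axis) and with it (vertical axis), for NBT on the left and trametinib on the right. Each point is 1 gene, and the dashed line marks equal ratios. For trametinib 8 genes lie in the upper right and TAP2 in the lower left, and for NBT TAPBP is the lowest point, at -0.69 and -1.04.

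Additivity was described as the combination's log2 ratio minus the sum of the single-drug ratios. None of the 9 genes departed by 1 or more, a departure found for only 4.75% of all genes. The median departure was 0.02 against -0.03 for all genes. The combination fell short of the sum for TAPBP, by -0.35 [-0.54, -0.16], for B2M, by -0.26 [-0.37, -0.15], and for NLRC5, by -0.23 [-0.44, -0.02]. The NLRC5 interval ended close to 0, and its departure was -0.20 with edgeR's TMM factors and -0.19 with DESeq2's size factors. With TPM or FPKM in place of counts, the NLRC5 departure was smaller, at -0.04 or -0.09. Intervals below 0 were found for 21.9% of all genes. TAP2 was above the sum, by 0.20 [0.08, 0.33], and intervals above 0 were found for 17.1% of all genes. The intervals of the other 5 genes, HLA-B, HLA-C, HLA-E, TAP1 and ERAP1, included 0, as did those of 60.9% of all genes.

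The promoter bases of the genes that moved apart are shown next, because class I promoters are known to carry an SXY module with an X2 box and a Y box, and interferon-responsive genes an ISRE. RefSeq windows (GRCh38.p14) of 250 bases before and 50 after a start were matched for 7 of the 9 genes, in 9 windows, and HLA-E and NLRC5 were not matched. The letters searched, on both strands, were CCAAT (Y box), TGACG (the core of the X2 box), GAAA followed by any 2 bases and GAAA again (ISRE core), GGGAC joined to TTTCC (NF-kB) and TTC followed by any 3 bases and GAA (GAS). They occur in 34.6%, 24.6%, 3.57%, 0.191% and 7.66% of the 35116 windows of all genes. Capitals mark these letters on either strand, overlapping matches run together, and each stretch ends before the start site. A match is a description and not a binding site.
HLA-B (chr6:31357219-31357297, minus strand): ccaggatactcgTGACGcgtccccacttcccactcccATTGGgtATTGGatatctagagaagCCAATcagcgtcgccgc
HLA-C (chr6:31272132-31272209, minus strand): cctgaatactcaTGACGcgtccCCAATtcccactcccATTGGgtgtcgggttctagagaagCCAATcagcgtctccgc
B2M (chr15:44711361-44711484, plus strand): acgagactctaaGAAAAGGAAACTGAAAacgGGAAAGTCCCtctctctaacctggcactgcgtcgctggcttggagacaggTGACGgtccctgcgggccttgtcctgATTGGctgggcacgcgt
TAP1 (chr6:32853755-32853850, minus strand): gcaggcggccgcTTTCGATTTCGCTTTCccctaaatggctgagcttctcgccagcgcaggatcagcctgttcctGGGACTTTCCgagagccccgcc
TAP2 (chr6:32838758-32838809, minus strand): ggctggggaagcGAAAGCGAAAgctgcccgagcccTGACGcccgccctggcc
TAPBP (chr6:33314079-33314110, minus strand): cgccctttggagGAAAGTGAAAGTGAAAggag

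HLA-B and HLA-C, whose trametinib ratios were 0.41 and 0.30, both held TGACG and CCAAT letters and no ISRE core. B2M, TAP1 and TAPBP, at 0.57, 0.60 and 0.84 with trametinib, each held 2 matches of the ISRE core, and B2M and TAP1 also held the NF-kB letters. B2M held TGACG and CCAAT letters too, like HLA-B and HLA-C, and TAP1 held CCAAT letters farther from the start than the bases shown. A GAS match was found only in another window of TAP1. TAP2, which was lower with trametinib, held the ISRE core as well, in 1 match, together with TGACG. Whether these letters bear on the ratios was not tested. ERAP1 had 1 match of the ISRE core, after the start, and CCAAT letters before it. No match says only that these letters are not in the window.

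The genes lie mostly together. HLA-E (chr6:30489509-30494194), HLA-C (chr6:31268749-31272092), HLA-B (chr6:31353875-31357179), TAP2 (chr6:32821831-32838739), TAP1 (chr6:32845209-32853704) and TAPBP (chr6:33299694-33314078) are in the MHC on chromosome 6, while B2M is at chr15:44711517-44718145, NLRC5 at chr16:56989557-57083520 and ERAP1 at chr5:96760813-96935854 (RefSeq, GRCh38.p14). TAP2, which was lower with trametinib, and TAP1, which was higher, are separated by PSMB8, with 1977 bases between TAP2 and PSMB8 and 529 between PSMB8 and TAP1. PSMB9 lies 487 bases from TAP1. The proteasome subunits on both sides of TAP1 were, like TAP1, higher with trametinib: PSMB8 had 96, 81, 199 and 97 reads in the control, NBT, trametinib and combination libraries, and PSMB9 had 35, 14, 98 and 29.

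PSMB8 and PSMB9 belong to the immunoproteasome, the interferon-induced form that favours class I peptides. Of 5 genes of the immunoproteasome and its activators, 2 were higher by a fold of 2 with trametinib, PSMB9 at 1.46 [0.90, 2.07] and PSMB8 at 1.03 [0.68, 1.41], and intervals lay above 0 for all 5, with a median of 0.55. Of all genes, 4.54% were that much higher and 34.1% had an interval above 0. Against trametinib alone, the combination was lower for all 5, with a median of -1.01, and 3 of them, PSMB9 at -1.79 [-2.46, -1.20], PSMB8 at -1.08 [-1.45, -0.73] and PSMB10 at -1.01 [-1.31, -0.73], passed a fold of 2. Of all genes, 33.4% had an interval below 0 in this comparison, as all 5 did, and 4.52% were lower by a fold of 2. TAPBP, at -1.04, was the only one of the 9 class I genes in that range. The constitutive catalytic subunits PSMB5, PSMB6 and PSMB7 had medians of 0.34 with NBT, 0.10 with trametinib and 0.43 in the combination library.

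Other genes of loading and trimming differed among themselves. CANX, the chaperone calnexin that holds new heavy chains, had 18661 reads in control, 33463 with NBT, 18324 with trametinib and 41149 in the combination library. It was higher where NBT was present, at 0.79 [0.77, 0.82] with NBT alone and 1.08 [1.05, 1.10] with the combination. PDIA3, the disulfide isomerase bound to tapasin, was at 0.60 [0.56, 0.64] with NBT, -0.07 [-0.12, -0.02] with trametinib and 0.73 [0.69, 0.77] in the combination library. ERAP2, the partner of ERAP1 in trimming, had 124, 91, 220 and 94 reads, and the combination was lower than trametinib by a log2 ratio of -1.27 [-1.64, -0.92]. TAPBP and ERAP2 were thus lower, and CANX and PDIA3 higher, in both libraries with NBT than in the paired library without it.

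**Figure D5:**
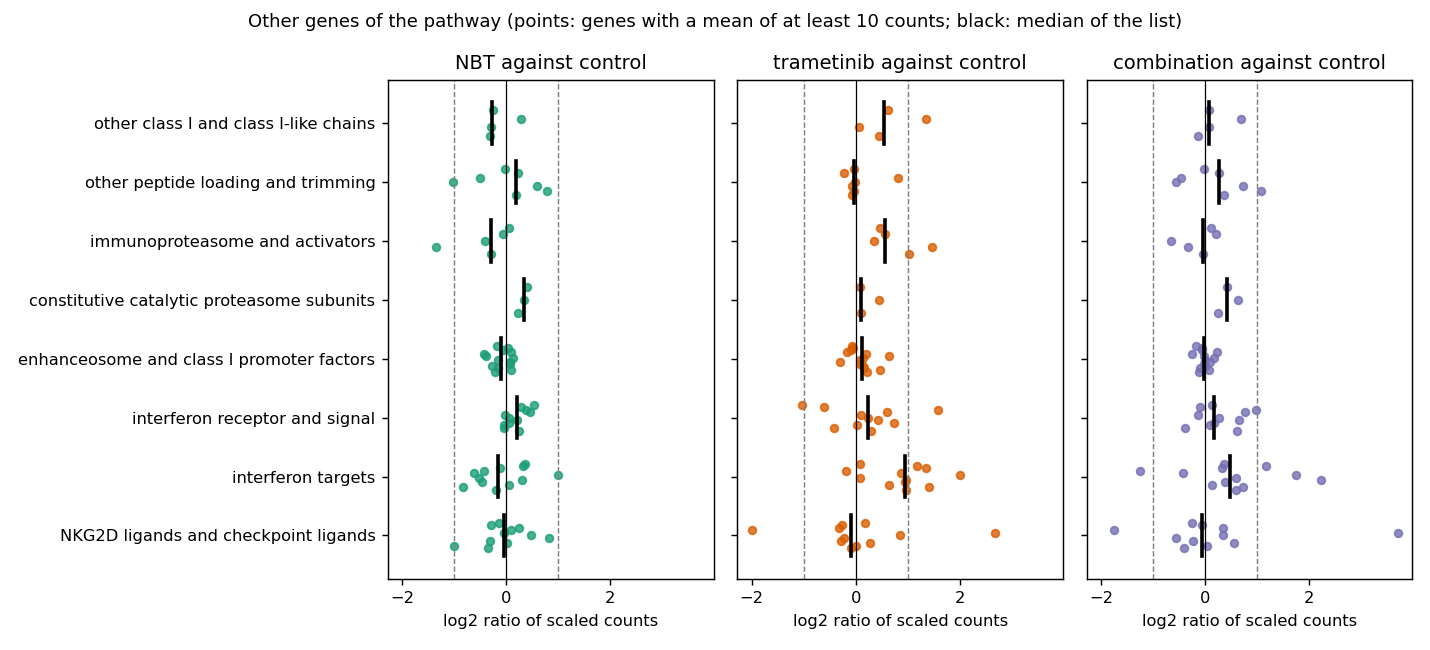
Log2 ratios against control of listed genes related to class I presentation, by list, for NBT, trametinib and the combination. Each point is a gene with a mean of at least 10 counts, black bars are list medians, and dashed lines mark a fold of 2. Interferon targets and the immunoproteasome lie to the right with trametinib (medians 0.95 and 0.55), and with NBT the list medians lie between -0.29 and 0.34.

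Among the other class I and class I-like chains, 4 of 7 genes had a mean of at least 10 counts, and the median was 0.54 with trametinib. MR1, which presents vitamin metabolites, had 58, 73, 150 and 98 reads, with a trametinib ratio of 1.35 [0.91, 1.82]. It was higher by a fold of 2, as were 4.54% of all genes. HFE, which regulates iron uptake, was at 0.63 [0.48, 0.78] and HLA-F at 0.45 [0.31, 0.60]. HLA-G, with 19 reads in control and 20 with trametinib, was at 0.06, with an interval that included 0. For HLA-F the combination fell back to -0.13 [-0.29, 0.03], as for B2M and TAPBP.

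Of 14 factors that act at class I promoters, none passed a fold of 2 in any comparison. Over all genes the shares past that limit in either direction were 3.71% (NBT), 7.19% (trametinib) and 10.2% (combination) against control, 7.72% for the combination against trametinib and 5.48% against NBT. IRF1, an interferon-induced activator of class I genes, had 556 reads in control, 440 with NBT, 874 with trametinib and 576 in the combination library. Its ratios were -0.39 [-0.57, -0.20], 0.64 [0.48, 0.80] and -0.01 [-0.18, 0.16], so its order over the libraries was that of TAPBP except that the combination and control libraries did not differ beyond their intervals. NLRC5 was lower with the combination than with trametinib by a smaller log2 ratio, -0.19 against -0.65 for IRF1. Of 11 interferon receptors and signal genes, 1 was higher by a fold of 2 with trametinib, as were 4.54% of all genes. This was IRF9, part of the type I interferon factor, at 1.58 [1.33, 1.84], with 170, 228, 514 and 352 reads. SOCS3, a feedback inhibitor of cytokine signalling, was the 1 gene lower by that fold, at -1.02 [-1.28, -0.77], as were 2.65% of all genes.

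Of 16 listed interferon targets, 12 had a mean of at least 10 counts, and with trametinib 4 were higher by a fold of 2 and 9 by a fold of 1.5, with a median of 0.95. The shares of all genes were 4.54% and 11.4%, and their median was 0.07. These 4 were MX1, an antiviral GTPase, at 2.01 [1.34, 2.80], IFI6 at 1.41 [0.31, 2.74] on 25 reads against 9, and the partners PARP9 at 1.36 [1.15, 1.58] and DTX3L at 1.17 [1.00, 1.35]. IFI6 reached a mean of 10 counts only through the libraries with trametinib, and without it, a choice made after the data were seen, the counts were 3 and 8 of 11. OAS3, an antiviral sensor of double-stranded RNA, was at -0.18 [-0.27, -0.08] with trametinib and at -1.24 [-1.36, -1.13] with the combination, and IFIT2 was at 2.23 with the combination on 85 reads against 17. OAS1 was lower with the combination than with trametinib, at -1.28 [-2.11, -0.54], and IFIT3 was higher with the combination than with NBT, at 1.11 [0.49, 1.78]. Against control, the combination was higher by a fold of 2 for 3 of the 12 targets, as for 5.53% of all genes. It was that much lower for 1, as for 4.71%. MX1 was at 1.75 and DTX3L at 1.17 with the combination, and the median of the 12 was 0.49 against 0.03 for all genes.

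Genes that act on class I at the surface or on the cells that read it were listed too. MARCHF4, a membrane ubiquitin ligase able to remove class I from the surface, had 404 reads in control, 483 with NBT, 91 with trametinib and 125 in the combination library. Its ratio was -2.16 [-2.51, -1.83] with trametinib, and it was the only one of 7 listed surface regulators in the table beyond a fold of 2, as were 7.19% of all genes in either direction. CD274, which encodes the checkpoint ligand PD-L1, had 1313, 1450, 334 and 405 reads, with -1.99 [-2.17, -1.81] for trametinib and -1.76 [-1.92, -1.60] for the combination. Of the ligands that NK cells read through NKG2D, MICB was at -1.01 [-1.76, -0.31] with NBT on 26 reads against 51, and RAET1E was lower with the combination than with NBT, at -1.38 [-2.20, -0.65]. RAET1L, another such ligand, had 3, 3, 22 and 47 reads, with 2.67 [1.13, 5.24] for trametinib and 3.70 [2.27, 6.24] for the combination. Thus MARCHF4 and CD274 were lower in the libraries in which most class I transcripts were higher. The other 6 of the 7 surface regulators lay above control with trametinib, as did 58.0% of all genes. Of these, 2 had intervals above 0, as had 34.1% of all genes. A link between these genes and the class I genes was not tested. Of the class II genes, CD74 had 5, 8, 38 and 31 reads, and it too reached that mean only through the libraries with trametinib. CIITA, the class II transactivator related to NLRC5, had 137, 154, 160 and 134 reads, with a trametinib ratio of 0.21 [-0.13, 0.55].

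The genes most like NLRC5 and TAPBP over their 3 ratios against control were sought among 10289 genes outside the lists with a mean of at least 100 counts, as a description. The nearest to NLRC5 were PALLD, an actin scaffold, at a distance of 0.05 on the log2 scale and with 1111, 1192, 2319 and 2209 reads, TCAF2 at 0.12 and SFN at 0.16. For TAPBP they were CDKN2C, an inhibitor of cyclin-dependent kinases, at 0.07 with 446, 295, 779 and 408 reads, AJUBA at 0.11 and LAMB2 at 0.12. The NLRC5 pattern was high in both libraries with trametinib, and the TAPBP pattern was high with trametinib alone and low with NBT.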

How the data were processed

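RNA was sequenced by the authors on the BGISEQ-500 platform, and the submitters' processing notes name Bowtie2 2.2.5, RSEM 1.2.8 and the build hg38. Per gene and per transcript of each library, the authors deposited raw estimated counts. They also deposited TPM, which corrects for length and sums to the same total in every library, and FPKM, which corrects for length and for the mapped fragments. Libraries were assigned to conditions by title, since the cell line entries of the labels differ in number. The labels describe removal of bacterial ribosomal RNA.

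Estimated counts were rounded and scaled to library sums. Log2 ratios of 2 libraries were computed with 0.5 reads added and exact (Clopper-Pearson) 95% intervals. These cover counting error only, and the variation between cultures is not in them. PCR copies are not independent molecules, so the intervals can be too narrow even for counting error. Fold limits were 2, the study's limit, and 1.5. Departures from additivity have delta-method intervals. Genes with a mean of at least 10 counts formed the background. The steps were tested on simulated data. The class I genes and the lists were chosen with earlier results of these data known. All 9 class I genes are named. Genes of other lists are named where they passed a fold of 2 in a comparison and had 50 counts or more in the higher of the libraries, or to state a list's level. IRF1, HFE, HLA-F, PDIA3, CIITA, RAET1L, IFI6 and CD74 were chosen after their values were seen, because they are well-known partners of the class I genes or complete a small count. Some listed genes, and planned results that need them, are not reported here. Gene IDs were matched to RefSeq (16699 of 16834). Alternatives were edgeR's TMM factors, DESeq2's size factors, TPM or FPKM with 0.1 added, 5 added reads, transcript sums and other filters on counts. Ratios were computed in Python 3.11.15 (numpy 2.4.6, pandas 2.3.3, scipy 1.17.1), and scaling factors in R 4.3.3 (DESeq2 1.42.0, edgeR 4.0.16).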

Additional observations from a re-analysis of the deposited data

Results flagged for a closer look

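Some genes had intervals on opposite sides of 0 for the same drug with and without the other drug. They were 0 of the 9 class I genes, 8 of 84 other listed genes (9.52%) and 7.18% of all genes tested. With only 9 genes, a count of 0 does not set them apart from that share. Each of the differences listed next rests on 1 library per condition and was not tested. For trametinib, the log2 ratio without NBT and then with it was -0.068 and 0.18 for CALR, -0.040 and 0.29 for CANX, -0.069 and 0.13 for PDIA3, -0.17 and 0.13 for RELA, 0.10 and -0.11 for TYK2, -0.33 and 0.09 for PVR and -0.27 and 0.23 for NECTIN2. For NBT, the log2 ratio without trametinib and then with it was 0.37 and -0.60 for IRF9 and -0.29 and 0.20 for NECTIN2.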

How the results depend on the processing

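No paired analysis was possible because each condition has 1 library, and no library could be left out for the same reason. Of 324 recomputed ratios and departures of the 9 genes, 315 stayed within their counting intervals, 9 moved beyond them and 0 reversed, with a largest shift of 0.22 on the log2 scale. The NBT ratios of HLA-E, ERAP1 and NLRC5, whose intervals included 0, lay on both sides of 0 across these settings. The number of class I genes higher by a fold of 2 with trametinib went from 1 to 0 with TPM and to 0 with FPKM, where NLRC5 was at 0.87 and 0.89. The number higher by a fold of 1.5 went from 3 to 2 with TMM, DESeq2's size factors and TPM, where TAP1 was at 0.55, 0.55 and 0.57. The cause of these shifts was not tested. Genes past a fold of 2 numbered 479 (NBT), 928 (trametinib) and 1322 (combination) against control, 996 for the combination against trametinib and 707 against NBT. A mean of at least 50 counts left 245, 546, 890, 654 (against trametinib) and 378 (against NBT), and a filter of 1 count gave 2153, 2956, 3390, 2897 and 2690, since the number of genes tested differs. Depth limits ERAP1 and HLA-B most among the 9, with 285 and 354 reads in control.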
